A study of Rattus norvegicus with 8 samples.

Results

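The genes described here are 10 markers of tubular injury and repair, the transcripts most often read to see whether the kidney epithelium has been damaged or is being rebuilt. They are Havcr1, Lcn2, Spp1, Clu, Krt8, Krt18, Vim, Timp1, Vcam1 and Sox9. Probes were assigned to a gene through the RefSeq accession printed on the array, which gave 10 probes for 9 of the 10 genes, out of 41012 non-control probes. Krt18 had 2 probes and every other gene had 1, and no probe could be tied to Sox9, a transcription factor of tubule progenitors and repair, which was not analysed here. RNA was taken from 8 right kidneys of rats that were female, F344/NSlc by strain and 10 weeks old, 4 of them after unilateral nephrectomy, in which the opposite kidney is removed and the remaining one enlarges, and 4 after a sham operation. Sampling was 2 days after surgery in both groups according to the study's design text, but the source names give 2 days for the nephrectomized kidneys and 1 day for the sham kidneys. Should the source names hold, the day of sampling cannot be told apart from the operation in the comparisons here. No label ties a sample to a named animal, and the p-values therefore set the group difference against the spread of these samples only.

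Epithelial injury in the tubule is followed by a well-known sequence. Surviving cells lose their brush border and transporters, switch on surface and secreted proteins such as KIM-1 (Havcr1), lipocalin-2 (Lcn2), osteopontin (Spp1) and clusterin (Clu), and remodel their cytoskeleton with the simple-epithelium keratins 8 and 18 and with vimentin. Compensatory growth after loss of the other kidney is a different setting, in which a kidney that was not itself injured takes on more work, and the comparison shows where the injury markers stood in it.

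Each sample was hybridised to its own 1-colour array, on which 59.5% to 66.1% of probes were well above background and none were saturated. The 30 differentiated proximal tubule genes on the array, 19 of 20 distal nephron and collecting duct markers and 12 of 12 podocyte markers passed the detection filter, which the kidney label calls for. Signals are given as log2 values relative to the 75th percentile of the same array. That percentile was a signal of 388 to 497 in nephrectomized kidneys and 460 to 643 in sham kidneys. In a piece of whole kidney, fewer cells of a type and less RNA per cell cannot be told apart.

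No marker passed the test. With limma across 20950 features and Benjamini-Hochberg adjustment, 0 of the 7 tested genes had an adjusted p under 0.05, against 1.04% of all features. Without adjustment, 2 of 7 had a p under 0.05 in limma, Krt18 and Spp1, both higher in nephrectomized kidneys, where 16.0% of all features did so in either direction and 9.75% on the higher side. The nephrectomized and sham values of the same 2 genes did not overlap, as was so for 11.1% of all features in either direction and for 7.06% on the higher side. The remaining 5 tested genes, Krt8, Vim, Clu, Timp1 and Vcam1, lay between -0.00 and 0.08 on the log2 scale, nephrectomized minus sham. The median difference of the 7 tested genes was 0.05, beside 0.01 over all features tested. Havcr1 and Lcn2, the pair most used to detect acute tubular damage, were too dim to enter the fit.

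**Figure D1:**
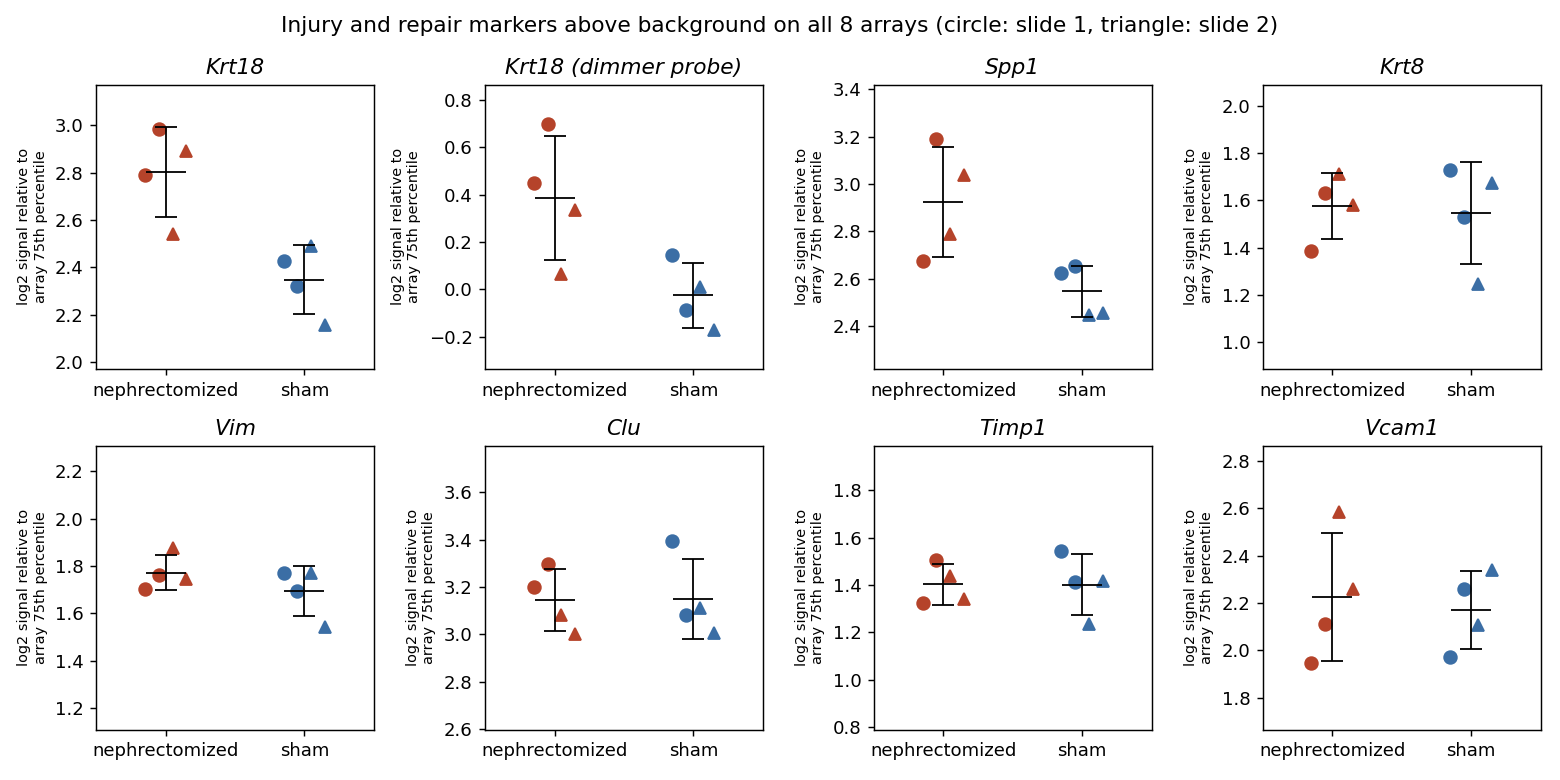
Log2 signal relative to the array's 75th percentile for the 8 probes above background on all 8 arrays, with each point 1 array, circles for slide 1 and triangles for slide 2, and bars for the mean ± SD of 4 arrays. All panels span the same range of the log2 scale. The nephrectomized points of Krt18 (brighter probe) and Spp1 lie above all sham points, while in the other panels the groups overlap.

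Havcr1 encodes KIM-1, a receptor for phosphatidylserine that is nearly absent from the healthy tubule and lets injured proximal cells take up dying neighbours. Its processed signals, on the linear scale of the scanner, were 16.3, 29.0, 19.7 and 5.42 in nephrectomized replicates 1 to 4, against 11.3, 10.99, 11.3 and 6.15 in sham replicates 1 to 4. The error that the scanner software attached to these signals was 3.58 to 6.11 in nephrectomized kidneys and 4.26 to 6.64 in sham kidneys. Only nephrectomized replicate 2 was well above background, so the gene was detected on 1 of 4 nephrectomized arrays and on 0 of 4 sham arrays. The lowest value was 5.42 in the nephrectomized group and 6.15 in the sham group, so the groups overlapped.

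The Havcr1 values averaged -4.93 ± 0.91 in nephrectomized kidneys and -5.83 ± 0.50 in sham kidneys on the log2 scale (SD, n = 4 each). A two-sided exact permutation test over the 70 assignments of arrays gave p = 0.143, where the smallest p possible is 0.0286. The sham level has only a bound. The lowest signals that count as well above background averaged -4.42 on the sham arrays, which is above the nephrectomized mean, so no fold is given.

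Lcn2 encodes lipocalin-2, also called NGAL, an iron-siderophore binding protein that distal tubule cells release after injury and that neutrophils store in their granules. Its processed signals were 16.2, 23.6, 24.0 and 10.6 in nephrectomized replicates 1 to 4, against 39.4, 20.7, 16.1 and 18.1 in sham replicates 1 to 4. The probe was well above background on 1 array of each group, nephrectomized replicate 2 and sham replicate 1, and the brightest of the 8 values belonged to a sham kidney. The log2 means were -4.69 ± 0.45 in nephrectomized kidneys and -4.64 ± 0.42 in sham kidneys (SD, n = 4 each; two-sided exact permutation p = 0.971, with 0.0286 the smallest possible).

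Neutrophils are the other known source of Lcn2 in a kidney sample. Of 5 tested neutrophil markers, 2 fell, S100a9 and S100a8, where 0.286% of all features were called lower. These 2 genes encode the calprotectin subunits, so their calls are not separate from each other. The list was chosen with earlier results of these data known, so the share called is a description only. S100a9 read -1.41, -1.48, -1.87 and -2.01 in nephrectomized replicates 1 to 4, against 0.04, -0.15, -0.44 and -0.61 in sham replicates 1 to 4. S100a8 read -2.02, -2.51, -2.90 and -3.15 in nephrectomized replicates 1 to 4, against -0.61, -0.75, -1.22 and -1.23 in sham replicates 1 to 4. The groups of both genes were apart, and the falls were 1.40 ± 0.18 for S100a9 and 1.69 ± 0.25 for S100a8 on the log2 scale (SE; limma adjusted p = 0.0187 and 0.0358). Leaving out single arrays gave an adjusted p of 0.0164 to 0.0684 for S100a9 and 0.0118 to 0.106 for S100a8 with limma. With normexp background correction the differences were smaller, -1.02 for S100a9 and -1.03 for S100a8, and with no filter on dim probes both calls ended (limma adjusted p = 0.0686 and 0.120). The summed linear signal of the 5 markers was 2.11 to 2.68 times the 75th percentile signal in nephrectomized kidneys and 2.96 to 4.04 times it in sham kidneys, and the median difference was -0.12. The 5 markers did not all lie on 1 side: 4 were below 0 and 1 was above it, at 0.69, without passing the test. The neutrophil genes Camp, Csf3r, Cxcr2, Elane, Il1r2, Mmp8 and Ngp were on the array but under the detection filter. The part of neutrophils in the Lcn2 values was not tested.

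**Figure D2:**
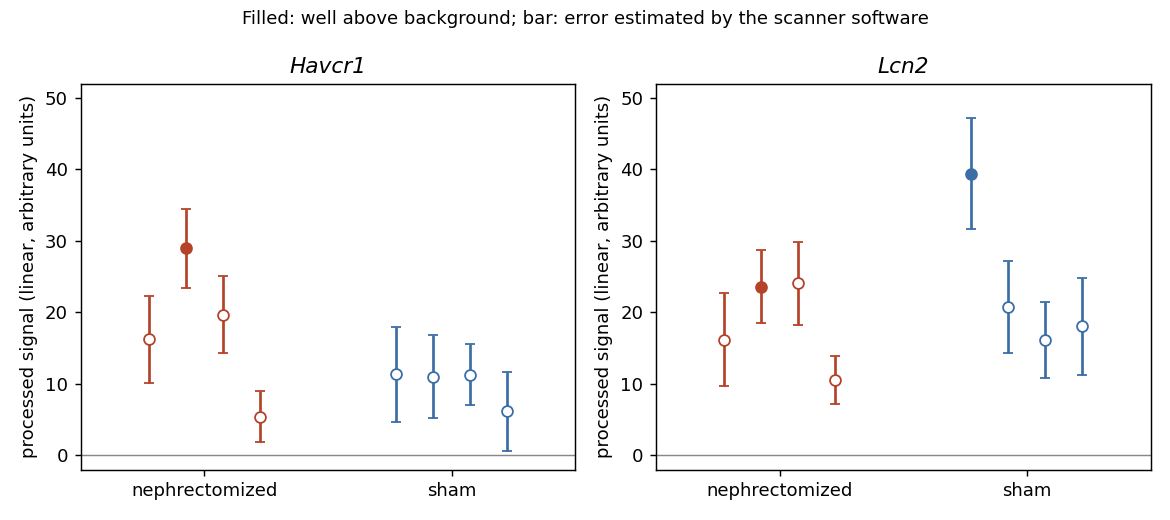
Processed signal of Havcr1 and Lcn2 on the linear scale for each array, with the error estimated by the scanner software as a bar and filled symbols for arrays on which the probe was well above background. Filled symbols appear for 1 nephrectomized array in the Havcr1 panel and for 1 array of each group in the Lcn2 panel, and both panels share 1 scale.

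Keratin 8, a type II keratin, and keratin 18, its type I partner, form the filaments of simple epithelia and normally depend on each other for stability. Their genes lie close together on the same chromosome. The RefSeq promoter windows of both on assembly GRCr8 are shown. Each runs from 250 bases before to 50 bases after the annotated start. Capitals mark matches, on either strand, to a TATA box, a CCAAT box, a GC box, an AP-1 site or the NF-kappa-B consensus.
Krt18 (chr7:135035918-135036217, plus strand): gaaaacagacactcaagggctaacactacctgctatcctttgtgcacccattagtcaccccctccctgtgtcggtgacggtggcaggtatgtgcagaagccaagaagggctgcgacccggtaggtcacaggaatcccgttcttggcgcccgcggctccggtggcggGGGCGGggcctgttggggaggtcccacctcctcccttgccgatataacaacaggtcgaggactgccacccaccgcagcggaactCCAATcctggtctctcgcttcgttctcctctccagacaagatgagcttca
Krt8 (chr7:135010290-135010589, minus strand): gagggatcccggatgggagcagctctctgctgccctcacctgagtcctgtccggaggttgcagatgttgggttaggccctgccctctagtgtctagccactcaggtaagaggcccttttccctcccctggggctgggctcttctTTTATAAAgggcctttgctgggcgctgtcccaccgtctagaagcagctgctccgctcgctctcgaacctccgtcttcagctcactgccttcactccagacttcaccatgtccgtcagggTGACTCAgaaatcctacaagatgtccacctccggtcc
Counted in bases from the annotated start, the Krt18 window holds a GC box at -84 and a CCAAT match at 0. The Krt8 window holds a TATA box, matched in 2 overlapping ways at -106 and -104, and an AP-1 match at 13. The CCAAT and AP-1 matches are therefore not upstream of the annotated start. In Krt8 the letters at the annotated start are atg, the spelling of a start codon, and the AP-1 match follows them. In Krt18 the annotated start does not fall on an atg. The 2 windows may therefore not be anchored at like points. The positions were not checked against a mapped start of transcription. Among the 33469 promoters of this length, the TATA box, spelled TATAAA, was found in 14.2%. The CCAAT box was found in 37.5%, and the GC box, spelled GGGCGG, in 33.1%. The AP-1 site, spelled TGANTCA, was found in 7.33% and the NF-kappa-B consensus in 4.18%. A match describes the letters and is not a binding site.

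Krt18 had the largest difference among the tested markers. Its brighter probe read 2.79, 2.99, 2.54 and 2.89 in nephrectomized replicates 1 to 4, against 2.43, 2.32, 2.49 and 2.16 in sham replicates 1 to 4, on the log2 scale. All 4 nephrectomized arrays were above all 4 sham arrays, but the gap between nephrectomized replicate 3 and sham replicate 3 was small. The difference was 0.45 ± 0.11 (SE; limma adjusted p = 0.0961), or 1.37-fold with a 95% interval of 1.15 to 1.64. By p-value the gene ranked 709 of 20950 features.

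The second, dimmer Krt18 probe read 0.45, 0.70, 0.07 and 0.34 in nephrectomized replicates 1 to 4 and 0.14, -0.09, 0.01 and -0.17 in sham replicates 1 to 4. Here nephrectomized replicate 3 was below sham replicate 1, so the groups overlapped. With every probe tested on its own, where 0.820% of 25250 probes passed, this probe differed by 0.41 ± 0.13 (SE; limma adjusted p = 0.187) and the brighter one had an adjusted p of 0.103. Both probes were highest in nephrectomized replicate 2 and lowest in sham replicate 4.

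The Krt18 difference was 0.51 on slide 1 and 0.39 on slide 2, each with 2 nephrectomized and 2 sham arrays, and neither passed. Leaving out single arrays gave 0.39 to 0.54. The gene passed only when limma's variance was fitted with a trend and robustly (adjusted p = 0.0492), a setting under which 530 features passed instead of 217.

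Krt8 read 1.38, 1.63, 1.71 and 1.58 in nephrectomized replicates 1 to 4, against 1.73, 1.53, 1.25 and 1.67 in sham replicates 1 to 4. The groups overlapped fully, with the highest and the lowest array both in the sham group. The difference was 0.03 ± 0.12 (SE; limma adjusted p = 0.928), and its 95% interval ran from a 0.848-fold to a 1.23-fold level.

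Within each array, the log2 signal of the brighter Krt18 probe minus that of Krt8 averaged 1.23 ± 0.27 in nephrectomized kidneys and 0.80 ± 0.32 in sham kidneys (SD, n = 4 each). This quantity was looked at after the values were seen and has no test. It was 1.31 to 1.40 in nephrectomized replicates 1, 2 and 4 and 0.83 in replicate 3, against 0.48 to 1.24 in the sham group, so the groups overlapped. Both probes bind with their own strength, so the quantity can be compared between arrays only and does not give the ratio of the 2 transcripts within an array.

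Keratins 8 and 18 are richest in the collecting duct and urothelium. The summed signal of the 19 tested distal nephron and collecting duct markers was 1197 to 1606 times the 75th percentile signal in nephrectomized kidneys and 1316 to 1421 times it in sham kidneys, with 0 called and a median difference of 0.10. Of these 19, 14 were above 0, and the values ran from -0.13 to 0.49. At an unadjusted p under 0.05 in limma, 3 were higher and 0 lower, beside 9.75% higher and 6.30% lower among all features. The 3 tested urothelium and papilla markers of 8 on the array summed to 21.4 to 27.4 in nephrectomized kidneys and 15.6 to 26.3 in sham kidneys, with 0 called and a median difference of 0.28, while Krt20, Krt5, Psca, Ptgs2 and Upk3a were under the detection filter. At the same unadjusted threshold, 1 of the 3 tested urothelium and papilla markers was higher and 0 were lower. The part of a varying share of these cells in the Krt18 values was not tested.

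Among 8 other tested genes of keratins and intermediate filaments, 0 were called, beside 1.04% of all features. The median difference was 0.13, with 7 values above 0 and a range of -0.14 to 0.44. At an unadjusted p under 0.05 in limma, 2 of the 8 were higher and 0 lower, beside 9.75% higher and 6.30% lower among all features. The brightest of them, the intermediate filament genes Nes and Lmna, which encode nestin and lamin A/C, differed by 0.07 and 0.14 (limma adjusted p = 0.744 and 0.263). The nephrectomized and sham values of Lmna did not overlap (limma unadjusted p = 0.0323), and those of Nes did.

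Vim encodes vimentin, the filament of mesenchymal, endothelial and glomerular cells that regenerating tubule cells take up for a time. It read 1.70, 1.76, 1.87 and 1.74 in nephrectomized replicates 1 to 4, against 1.77, 1.69, 1.77 and 1.54 in sham replicates 1 to 4. The groups overlapped, and the 4 nephrectomized arrays spread less than any other tested marker's did, with an SD of 0.07. The difference was 0.08 ± 0.07 (SE; limma adjusted p = 0.646), with a 95% interval of 0.942 to 1.18-fold. Among markers of cells that carry vimentin in the normal kidney, 0 of 12 fibroblast and pericyte markers and 0 of 13 endothelial markers were called, with medians of 0.04 and 0.05. Among all features 1.04% were called. Values ran from -0.39 to 0.90 in the fibroblast and pericyte list and from -0.28 to 0.18 in the endothelial list. At an unadjusted p under 0.05 in limma, 2 fibroblast and pericyte markers were higher and 1 lower. Of the endothelial markers, 0 were higher and 2 lower, beside 9.75% higher and 6.30% lower among all features. The summed signal of the fibroblast and pericyte list was 57.4 to 78.1 in nephrectomized kidneys and 60.6 to 76.5 in sham kidneys, and that of the endothelial list was 39.0 to 42.7 in nephrectomized kidneys and 36.8 to 40.9 in sham kidneys. Their part in the Vim values was not tested.

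Spp1 encodes osteopontin, a secreted phosphoprotein made by the thick ascending limb and, after injury, by much of the tubule, where it binds integrins and CD44 and slows crystal growth. Its RefSeq promoter window on GRCr8, shown since this gene and Krt18 were the markers whose groups separated, holds a TATAAA match far upstream of the start and none of the other 4 motifs.
Spp1 (chr14:5619755-5620054, minus strand): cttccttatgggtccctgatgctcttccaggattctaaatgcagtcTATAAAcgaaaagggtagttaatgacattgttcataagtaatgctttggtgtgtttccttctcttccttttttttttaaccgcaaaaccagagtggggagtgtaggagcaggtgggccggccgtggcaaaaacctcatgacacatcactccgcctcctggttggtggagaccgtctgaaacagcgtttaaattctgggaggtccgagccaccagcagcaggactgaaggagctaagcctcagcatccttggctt
The windows of Krt18 and Spp1 therefore share no motif of the 5.

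Spp1 read 2.68, 3.19, 2.79 and 3.04 in nephrectomized replicates 1 to 4, against 2.62, 2.65, 2.45 and 2.46 in sham replicates 1 to 4. The 4 nephrectomized arrays were all higher, but nephrectomized replicate 1 exceeded sham replicate 2 only narrowly. The difference was 0.38 ± 0.12 (SE; limma adjusted p = 0.167), or 1.30-fold with a 95% interval of 1.08 to 1.57, and the rank by p-value was 1478 of 20950. It was 0.29 on slide 1 and 0.46 on slide 2, and leaving out single arrays gave 0.29 to 0.46.

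The array carries 10 spots of the Spp1 probe, which show how far repeated spots of the same hybridisation spread. Within an array the spots had an SD of 0.06 to 0.10 in nephrectomized kidneys and 0.05 to 0.06 in sham kidneys on the log2 scale. Between arrays the SD was 0.23 in nephrectomized kidneys and 0.11 in sham kidneys, so the arrays of both groups spread more widely than repeated spots. In the spread between arrays, the kidney, its labelling and its hybridisation cannot be told apart. Nephrectomized replicate 2 was highest and sham replicate 3 lowest.

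Nephrectomized replicate 2 was thus the highest of the 8 arrays for both Krt18 probes, Spp1 and Havcr1, and it was the only array on which Havcr1 was well above background. It was not the highest array for Krt8, Vim, Clu, Timp1, Vcam1 or Lcn2. Without this array the Krt18 difference was 0.39 and the Spp1 difference 0.29 (limma adjusted p = 0.200 and 0.288).

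The arrays differed in overall brightness, and the shift to the 75th percentile removes this. In an alternative chosen after seeing the data, with no shift, the median of all features was -0.26, nephrectomized minus sham, and Krt18 and Spp1 were at 0.18 and 0.11 (limma adjusted p = 0.377 and 0.619). Relative to that median both stayed higher. With quantile, median or cyclic loess normalization Krt18 was at 0.43 to 0.44 and Spp1 at 0.35 to 0.37.

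**Figure D3:**
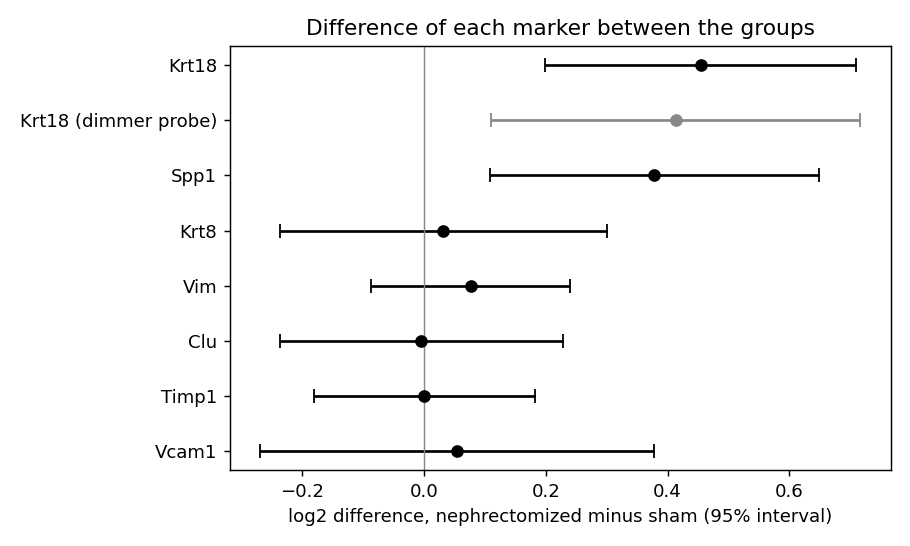
Log2 difference of each marker, nephrectomized minus sham, with its 95% interval from limma (n = 4 each); the grey point is the dimmer Krt18 probe from the fit with every probe on its own. The intervals of both Krt18 probes and of Spp1 lie above 0 before adjustment over all features, and the intervals of Krt8, Vim, Clu, Timp1 and Vcam1 include 0.

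Clu encodes clusterin, a secreted chaperone that is strongly induced in damaged tubules. It read 3.20, 3.30, 3.08 and 3.0 in nephrectomized replicates 1 to 4, against 3.39, 3.08, 3.11 and 3.01 in sham replicates 1 to 4. The highest value was in sham replicate 1 and the lowest in nephrectomized replicate 4, and the groups overlapped over most of their range. The difference was -0.00 ± 0.10 (SE; limma adjusted p = 0.989), with a 95% interval of 0.848 to 1.17-fold.

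Timp1 encodes a secreted inhibitor of matrix metalloproteinases that fibroblasts, macrophages and injured tubules produce. It read 1.32, 1.51, 1.44 and 1.34 in nephrectomized replicates 1 to 4, against 1.54, 1.41, 1.23 and 1.42 in sham replicates 1 to 4. Both group means were 1.40, and the difference was 0.00 ± 0.08 (SE; limma adjusted p = 0.999), with a 95% interval of 0.882 to 1.13-fold, the lowest upper bound of the tested markers. This probe too has 10 spots per array, of which at least 9 were usable, with an SD within an array of 0.04 to 0.06 in nephrectomized kidneys and 0.04 to 0.05 in sham kidneys, against an SD between arrays of 0.09 in nephrectomized kidneys and 0.13 in sham kidneys.

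Timp1 belongs to the protease system that remodels the matrix, and 17 other tested genes of matrix proteases and their inhibitors had 0 calls and a median difference of -0.03, with values from -0.69 to 0.21. Among all features 1.04% were called. At an unadjusted p under 0.05 in limma, 0 of the 17 were higher and 3 lower, beside 9.75% higher and 6.30% lower among all features. The brightest 2, Timp2, a related inhibitor, and Plau, the urokinase gene, were at -0.01 and -0.15. Macrophages are a known source of both Timp1 and osteopontin. Of 14 tested macrophage and monocyte markers, 13 were below 0 with a median of -0.14, where 52.5% of all features were above 0. At the same unadjusted threshold, 0 of the 14 were higher and 5 lower. Among the 14 the single call was Adgre1, which encodes a surface receptor of mature macrophages and fell by 0.51 ± 0.09 on the log2 scale (SE; limma adjusted p = 0.0477), beside 0.286% of all features called lower. The call ended with normexp background correction (a difference of -0.39, limma adjusted p = 0.0773), with no filter on dim probes (0.143) and without any single array (0.0684 to 0.134). The summed signal of the 14 markers was 47.2 to 54.5 in nephrectomized kidneys and 50.5 to 53.9 in sham kidneys, with Ccr2 and Cd163 under the detection filter. The part of macrophages in the Timp1 and Spp1 values was not tested.

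Vcam1 encodes a ligand for the integrin VLA-4 that activated endothelium and, in failed repair, proximal tubule cells display. It is a standard target of NF-kappa-B, and its RefSeq promoter window on GRCr8 is shown for the consensus site it holds, beside a TATA box matched in 2 overlapping ways.
Vcam1 (chr2:206742734-206743033, minus strand): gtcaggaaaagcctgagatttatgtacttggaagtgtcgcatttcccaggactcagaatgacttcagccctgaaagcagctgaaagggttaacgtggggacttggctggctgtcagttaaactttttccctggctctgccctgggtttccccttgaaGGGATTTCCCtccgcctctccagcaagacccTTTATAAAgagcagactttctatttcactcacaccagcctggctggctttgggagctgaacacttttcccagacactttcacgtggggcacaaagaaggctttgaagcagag
The 4.18% of promoters given above hold this consensus, and of the 8 marker promoters in the RefSeq table those of Vcam1, Lcn2 and Vim do.

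Vcam1 read 1.95, 2.11, 2.58 and 2.26 in nephrectomized replicates 1 to 4, against 1.97, 2.26, 2.11 and 2.34 in sham replicates 1 to 4. The highest and the lowest array were both nephrectomized, and the sham values lay between them. The difference was 0.05 ± 0.14 (SE; limma adjusted p = 0.895), with the widest interval of the markers that overlapped, 0.829 to 1.30-fold. It was -0.09 ± 0.14 on slide 1 and 0.20 ± 0.16 on slide 2 (SE), so neither slide settled its sign. A difference between the slides was not tested.

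Of 16 other tested targets of NF-kappa-B, 13 were below 0 and the median was -0.17. In that list 0 were called higher and 2 lower, against 0.749% higher and 0.286% lower among all features. The values ran from -0.81 to 0.77. At an unadjusted p under 0.05 in limma, 1 was higher and 5 lower, beside 9.75% higher and 6.30% lower among all features. Bcl3, an atypical inhibitor protein of the NF-kappa-B family, read 0.89, 1.03, 0.89 and 0.68 in nephrectomized replicates 1 to 4, against 1.76, 1.72, 1.43 and 1.65 in sham replicates 1 to 4. Ccl5, a chemokine that attracts T cells and monocytes, read 0.55, 0.45, 0.63 and 0.66 in nephrectomized replicates 1 to 4, against 1.14, 0.91, 1.17 and 1.05 in sham replicates 1 to 4. Neither gene's groups overlapped, and the falls were 0.77 ± 0.10 and 0.49 ± 0.08 on the log2 scale (SE; limma adjusted p = 0.0196 and 0.0383). Leaving out single arrays gave a limma adjusted p of 0.0324 to 0.0713 for Bcl3 and of 0.0621 to 0.096 for Ccl5, which therefore lost its call each time. With no filter on dim probes both calls ended (limma adjusted p = 0.0735 for Bcl3 and 0.124 for Ccl5). The cytokine genes Il6 and Tnf and the chemokine gene Cxcl2 were under the detection filter. Lymphocyte markers, whose cells also make Ccl5, had 6 of 6 tested values below 0, 0 called and a summed signal of 2.22 to 2.43 in nephrectomized kidneys and 2.43 to 2.82 in sham kidneys, and their part in the Ccl5 values was not tested. Among 15 tested adhesion molecules and their ligands 0 were called, with a median of -0.05 and values from -0.34 to 0.07, and the brightest 2, the cadherin gene Cdh16 and the epithelial adhesion gene Epcam, were at 0.03 and -0.00. Of these 15, 0 were higher and 2 lower at an unadjusted p under 0.05 in limma.

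The wider program of injury genes was compared in the same way. Of 27 tested genes of injured and dedifferentiated tubules 0 were called, with a median of 0.03, 15 values above 0 and a range of -0.27 to 0.50, and at an unadjusted p under 0.05 there were 2 higher and 1 lower. The brightest 2, Cd24 and the integrin gene Itgb6, were at 0.12 and -0.17. Of 19 tested urinary and plasma injury biomarkers 0 were called, with a median of 0.03 and a range of -0.60 to 0.46, and 3 were higher and 1 lower at an unadjusted p under 0.05. The brightest 2, Umod, which encodes uromodulin of the thick ascending limb, and Mif, a cytokine gene, were at 0.03 and 0.17. The transporters and enzymes that dedifferentiating proximal cells lose had 0 calls among 30 tested, a median of -0.07, a range of -0.68 to 0.21 and a summed signal of 2004 to 2388 in nephrectomized kidneys and 1974 to 2407 in sham kidneys. At an unadjusted p under 0.05 in limma, 0 of the 30 were higher and 4 lower, beside 9.75% higher and 6.30% lower among all features. The brightest 2, the gluconeogenic enzyme gene Fbp1 and the dicarboxylate transporter gene Slc13a3, were at 0.09 and 0.04. Podocyte and red blood cell markers, 12 and 5 tested, also had 0 calls, with medians of -0.03 and 0.08. At the 1.04% called among all features, lists of these sizes would hold fewer than 1 call each.

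**Figure D4:**
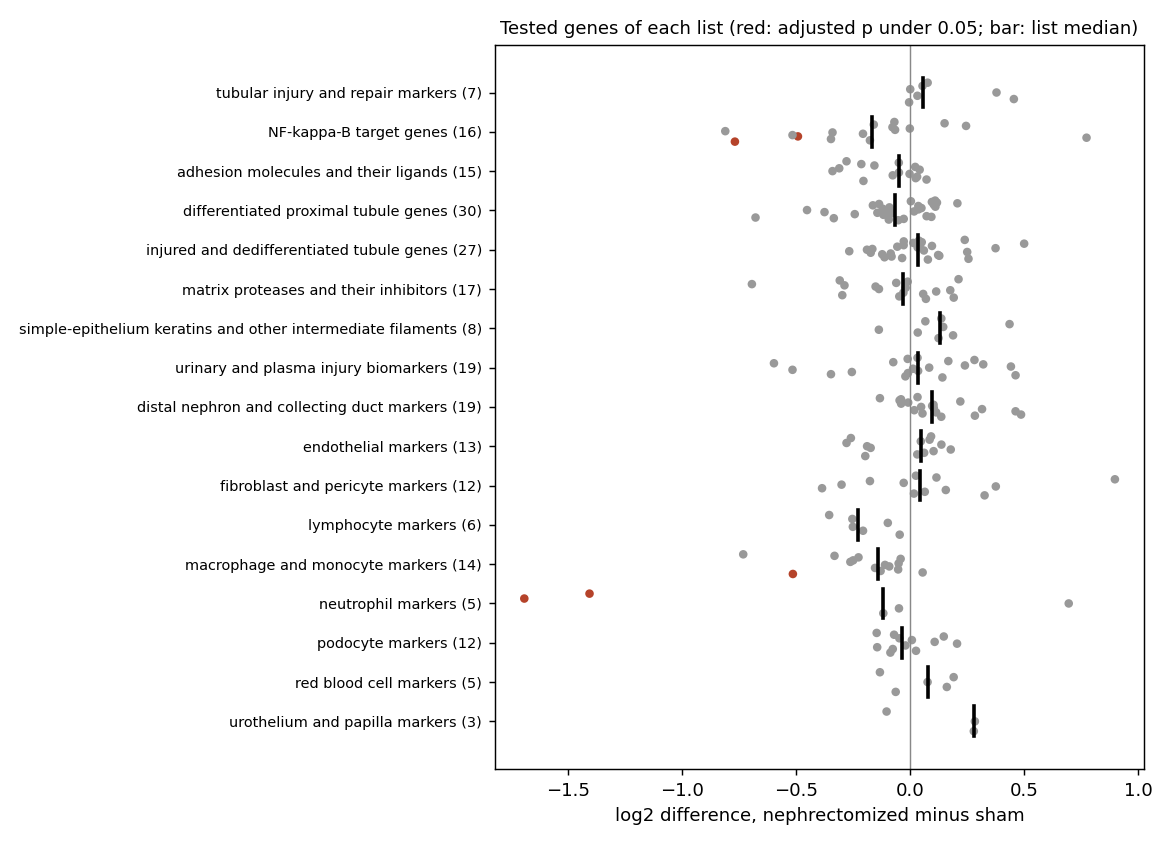
Log2 difference, nephrectomized minus sham, of each tested gene in the injury and repair markers and in the other gene lists, with the number tested in brackets, the list median as a bar and genes at an adjusted p under 0.05 in red. Red points appear among NF-kappa-B targets, neutrophil markers and macrophage markers, on the lower side of 0, and none among the injury and repair markers.

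The 7 tested markers had a median residual SD between arrays of 0.17 on the log2 scale, beside 0.13 over all features. No array was high or low throughout. Among the 8 tested probes, nephrectomized replicate 2 and sham replicate 1 were each the highest array for 3, nephrectomized replicate 3 for 2, and sham replicates 3 and 4 were each the lowest for 3.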

How the data were processed

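RNA from 8 kidneys, 4 nephrectomized and 4 sham, was hybridised to 8 1-colour Agilent arrays with Cy3 labelling, per the labels' protocols. The deposited scanner tables hold processed intensity values that Agilent Feature Extraction 10.5.1.1 had corrected for background, per the submitters' processing notes and the file headers, with quality flags coded 0 or 1. The deposited series table holds log2 values of 30556 rows. Set against the scanner values its slopes were near 1 on each array and its column medians were 0.0012, 0.012, -0.00092 and 0.015 for nephrectomized replicates 1 to 4 and -0.014, -0.0023, -0.001 and -0.0097 for sham replicates 1 to 4, and its direction was that of the scanner values. The median over the 8 arrays was within 0.001 of 0 in all 30556 rows, so each row had been centred on its median.

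From the intensities, control spots (1639 of 45018) were left out, spots of a probe were averaged, and log2 intensity minus the 75th percentile of the array was used. Probes well above background on at least 4 of 8 arrays were kept, 25250 of 41012. The brightest probe stood for a gene, giving 20950 features. Genes were named from RefSeq accessions for 18713 probes. Nephrectomized and sham arrays were set against each other by lmFit and eBayes of limma 3.58.1, run in R 4.3.3, and p-values were adjusted over the 20950 features by Benjamini-Hochberg, with 0.05 as the threshold. The limma fit was tried on simulated data. Genes under the filter were compared with an exact permutation test. The number of arrays limits the precision. Nephrectomized and sham replicates 1 and 2 shared slide 1 and replicates 3 and 4 slide 2, and each slide had its own scan session. Sham arrays held positions 1 and 2 of each slide and nephrectomized arrays positions 3 and 4, so position and operation cannot be told apart. The text names all 10 markers, the called genes of each list, and, in pathway lists with none called, the 2 brightest tested genes. The markers and lists were chosen with earlier results of these data known, so the shares called among them are descriptions only. Alternatives covered background correction, normalization, filters, probe choice, variance model, array weights, slide and replicate number as blocks, single slides, the series table and each array left out.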

Additional observations from a re-analysis of the deposited data

Results flagged for a closer look

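Adgre1, which encodes a surface receptor of mature macrophages, was at -0.81 on the log2 scale in sham replicate 1, apart from the other sham arrays, which were at -0.65, -0.63 and -0.66. The nephrectomized values of the gene were -1.35, -1.33, -1.01 and -1.11. This was 1 of 30 groups of 4 arrays checked for a sample far from the rest, where chance gives about 1 in 20, and none of the 20 groups of the injury and repair marker probes was set apart in this way. Without sham replicate 1 the Adgre1 difference was -0.56 (limma adjusted p = 0.0756).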

How the results depend on the processing

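Of 168 values, 7 tested markers under 24 alternatives, 1 passed, Krt18 with a trend and robust variance, so the count of markers called was 1 there and 0 in the others. Krt18 and Spp1 stayed above 0 in all 24. Signs turned for markers near 0: Vcam1 to -0.0013 with normexp and -0.089 on slide 1, Vim to -0.00018 and Krt8 to -0.12 on slide 1, and Clu to 0.016 with array weights and 0.010 on slide 1. Timp1 turned to -0.015 with normexp, -0.0052 with quantile, -0.0063 with cyclic loess, -0.0089 with the shift to the median, -0.0050 with array weights, -0.063 on slide 1 and -0.00032 in the series table. With no shift, chosen after seeing the data, Vcam1, Vim, Krt8 and Timp1 were at -0.22, -0.19, -0.24 and -0.27. Leaving out single arrays gave Vcam1 -0.066 to 0.147, Krt8 -0.067 to 0.096, Clu -0.056 to 0.078 and Timp1 -0.055 to 0.047. The 217 features called became 20 with no filter, 61 with detection on 1 array and 394 with detection on all 8, where more or fewer features were tested. They became 530 with trend and robust variance, 504 with array weights and 100 with slide as a block, and the cause was not tested. On slide 1 alone and slide 2 alone, with 4 arrays each, limma called 0, with 1883 and 1745 at an unadjusted p under 0.05. Leaving out single arrays gave 22 to 197. With the replicate number as a block 10 features and 0 markers were called, and the correlations of same-numbered arrays' deviations were 0.14, 0.01, -0.06 and -0.21, so the numbers were not taken as pairs. Under that block Bcl3, Ccl5 and Adgre1 had an adjusted p of 0.104, 0.122 and 0.127, and S100a9 and S100a8 of 0.0239 and 0.0278, with limma. The positive and significant flag marked all 10 marker probes. Signal near background limits Havcr1 and Lcn2, whose adjusted p without the filter was 0.558 and 0.961 with limma.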
